A study of Mus musculus with 24 samples.

Results

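The genes of the cytosolic ribosomal proteins were followed across 24 poly-A RNA libraries of SIM-A9 cells, an immortalised mouse microglial line, exposed for 2 h to probes used on neurons. Members were the protein-coding genes whose symbol is Rpl or Rps followed by a digit, with Rplp0, Rplp1, Rplp2 and Rpsa, and without the kinases named Rps6k, Rps19bp1 and entries named as pseudogenes. The count table held 85 of them among 54838 genes. A filter on low counts kept 82 of the 85, among 13116 genes kept in all. Rpl10l had 0 counts in each library, Rpl39l averaged 1.29 counts and Rpl24 5.63 counts, and these 3 were not tested. Just inside the filter lay Rpl36al, with a mean of 23.3 counts.

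The 8 groups had 3 libraries each. All cells had been kept in serum-free medium for 2 h before the additions. The control received no named agent. The other groups received LPS (bacterial lipopolysaccharide), single-walled carbon nanotubes labelled (GT)6 SWCNT or COOH SWCNT (carboxylated), Fura-2 (a dye that reports calcium), one of the membrane dyes DiBASC2 and Di-2-ANEPEQ, or AAV (adeno-associated virus). The labels used here give no concentrations. They do not say whether replicates were separate cultures, so p-values measure the spread between these libraries. All libraries come from 1 cell line.

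Each cytosolic ribosome contains 1 copy of most of these proteins, divided between a large subunit, which forms peptide bonds, and a small subunit, which reads the messenger RNA. The genes are transcribed at high, similar rates, and their messages carry a terminal oligopyrimidine tract, a run of C and T bases at the 5′ end through which mTOR and Larp1 control their translation and stability. Myc raises the transcription of many of them. The messages are short and abundant, so their counts are also sensitive to how a library samples short molecules.

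Stretches around the RefSeq transcription start are shown for members at both ends of the order in COOH SWCNT against control, where the group moved most. They cover 40 bases before the start and 20 from it, on the gene's strand in build GRCm38.p6. Capitals mark the part of any run of at least 8 C or T bases that falls inside the stretch. The first 4 had the lowest fold changes among called members with at least 100 CPM (counts scaled to the TMM-adjusted total of the library) in control and a RefSeq entry.
Rpl22, chr4:152325686-152325745, plus strand: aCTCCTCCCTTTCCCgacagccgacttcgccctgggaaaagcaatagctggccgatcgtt
Rpl36a, chrX:134585614-134585673, plus strand: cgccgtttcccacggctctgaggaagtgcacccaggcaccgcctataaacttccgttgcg
Rpl39, chrX:37085203-37085262, minus strand: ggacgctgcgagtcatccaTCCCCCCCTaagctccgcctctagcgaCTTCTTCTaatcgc
Rpl26, chr11:68901526-68901585, plus strand: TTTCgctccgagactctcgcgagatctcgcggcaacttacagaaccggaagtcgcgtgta
The next 4 had the fold changes nearest to 0 among members with at least 100 CPM and an entry.
Rps4x, chrX:102189372-102189431, minus strand: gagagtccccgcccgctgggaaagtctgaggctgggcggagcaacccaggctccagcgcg
Rpl10, chrX:74270776-74270835, plus strand: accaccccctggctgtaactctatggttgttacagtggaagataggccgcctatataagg
Rps26, chr10:128626487-128626546, minus strand: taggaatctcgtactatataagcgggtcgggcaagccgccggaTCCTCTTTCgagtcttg
Rplp0, chr5:115559427-115559486, plus strand: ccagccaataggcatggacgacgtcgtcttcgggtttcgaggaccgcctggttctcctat

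RefSeq windows, 250 bases before to 50 from the start, were at hand for 65 of the 85 members. A run of at least 8 C or T bases on the gene's strand lay within 50 bases of the start in 53 of the 65 (81.5%), and in 39.2% of 26960 other genes (35.7% of all 32851 windows). Such a run may lie before the start, as it does in Rpl22. Its presence or absence thus does not show whether the message begins with an oligopyrimidine tract. CCGGAAG, the core bound by ETS factors, was found on either strand in 26 members (40%), in 9.86% of the other genes and in 8.86% of all windows. ATGGCGG, found in YY1 sites, was in 11 members (16.9%), in 4.66% of the other genes and in 4.05% of all windows. The run lay near the start of Rpl22, Rpl36a, Rpl39 and Rpl26, and also of Rpl10 and Rps26, but not of Rps4x and Rplp0. CCGGAAG was in the windows of Rpl39, Rpl26 and Rps26. Both the run and CCGGAAG thus occurred at either end of the order. ATGGCGG was in none of these 8 windows.

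Total counts were 17364272 to 29259221 per library. Members took 6.01% to 8.16% of a library's counts. Pseudogene entries with a ribosomal protein symbol and the suffix -ps took at most 0.0167%. Pseudogenes listed under other symbols were not counted in that share. Microglial markers passed the filter in 10 of 10 cases, with a summed level of 1877 to 2063 CPM over the group means. No marker of astrocytes, fibroblasts or endothelium passed. Of 4 neuronal markers 1 passed, and of 4 oligodendrocyte markers 2, at sums of at most 1.04 and 5.86 CPM in any library. The sequencing index numbers run in blocks of 3 per group, so library order and group cannot be told apart.

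In control, 76 of the 82 tested members stood at 100 CPM or more. Their levels ran from 1.04 CPM for Rpl36al to 2950 CPM for Rpl7a, a large-subunit protein, with a median of 864 CPM. Per kilobase of transcript, Rps27a, made as a fusion with ubiquitin, stood at 2499 CPM, Rplp1 at 2092, Rps7 at 1938 and Rplp0 at 1300. Rpl22 stood at 416 CPM per kilobase and its paralogue Rpl22l1 at 89.2. The SD of log2 CPM over the 3 control libraries had a median of 0.063 across members. Members also moved together, with a median log2 difference from the control mean of 0.05 in control replicate 1 and −0.05 in control replicate 2. Group medians of that size lie within the spread between control libraries. The fold changes that follow are log2 values with their SE from edgeR's quasi-likelihood test, with adjusted p-values (Benjamini-Hochberg) over all 13116 genes, and a gene was called at an adjusted p under 0.05.

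**Figure D1:**
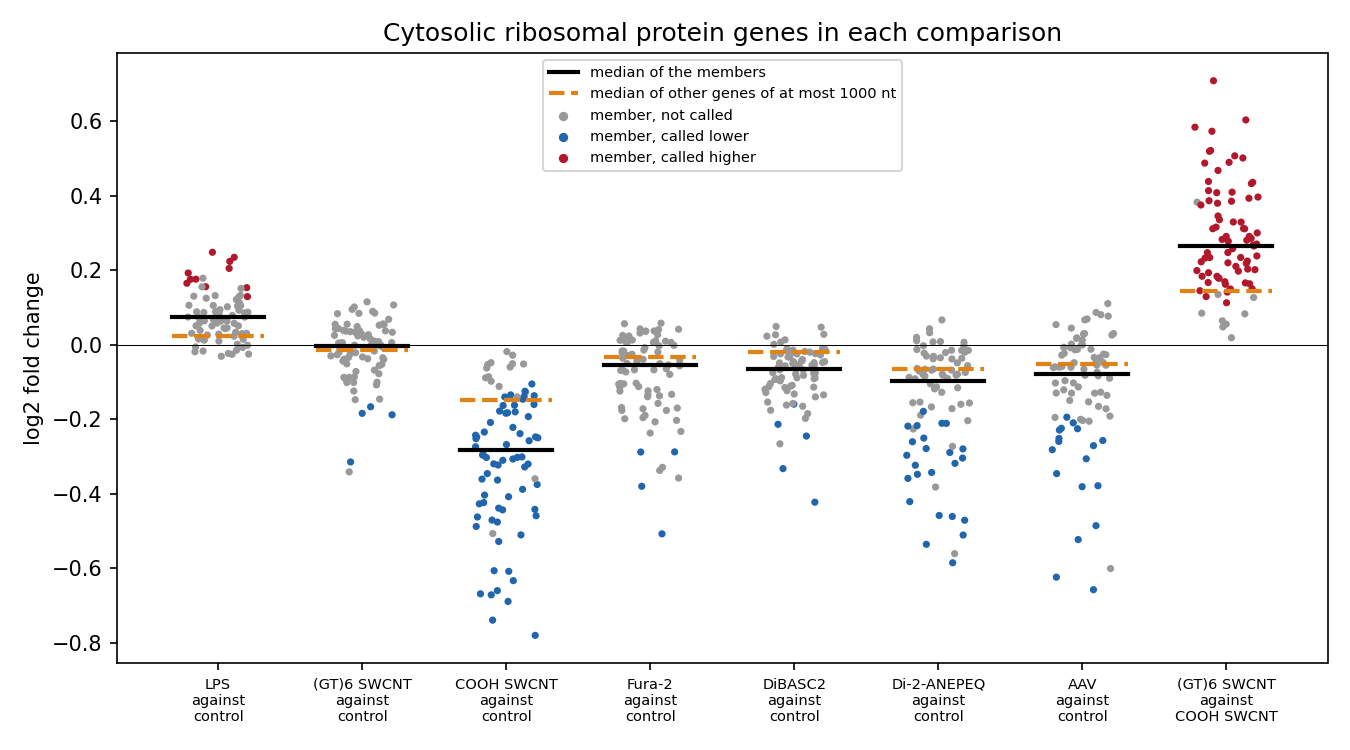
Log2 fold change (vertical axis) of each of the 82 tested ribosomal protein genes (points, coloured by call) in 8 comparisons. Black bars are the members' medians and dashed bars those of 874 other protein-coding genes of at most 1000 nt. The COOH SWCNT points lie below 0, with a median of −0.28, and the (GT)6 SWCNT against COOH SWCNT points lie above it.

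COOH SWCNT libraries held a smaller share of ribosomal protein RNA than control libraries. Of the 82 members, 66 were called lower (80.5%) and 0 higher, against 10.6% of all genes called lower and 9.39% higher. The median fold change was −0.28 and all 82 values were below 0, from −0.78 to −0.02, while the median over all genes tested was near 0, at −0.0016. Members made up 6.36% ± 0.304 of counts (SD, n = 3) with COOH SWCNT and 7.69% ± 0.219 in control. Among the genes of the large subunit with the stalk 39 of 49 were called lower, and 27 of 33 of the small subunit, with medians of −0.29 and −0.27. In bulk RNA, fewer cells making a message and less message per cell cannot be told apart.

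The lowest well-expressed member was Rpl22 (ENSMUSG00000028936.15, GENCODE M21 on GRCm38, chromosome 4, 152325742 to 152334071), a large-subunit protein that ribosomes can do without. It read 879, 784 and 891 CPM in the control libraries and 469, 522 and 540 CPM with COOH SWCNT. The groups were well apart, at −0.74 ± 0.06 (adjusted p 2.76e-12). Rps27a (ENSMUSG00000020460.15, chromosome 11, 29545846 to 29548109) read 1847, 1641 and 1865 CPM in control and 1001, 1122 and 1198 CPM with COOH SWCNT. It was lower in each of the 3 libraries, at −0.69 ± 0.07 (adjusted p 3.10e-10).

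Rpl36a (ENSMUSG00000079435.9, chromosome X, 134585654 to 134588062), a protein near the exit site of the large subunit, read 688, 628 and 669.9 CPM in control and 393, 417 and 437 CPM with COOH SWCNT. It fell by 0.67 ± 0.07 on the log2 scale (adjusted p 7.21e-10). Rpl39 (ENSMUSG00000079641.3, chromosome X, 37082520 to 37085402), a small protein in the wall of the peptide exit tunnel, read 855, 738 and 833 CPM in control and 461, 518 and 547 CPM with COOH SWCNT. Its groups did not overlap either, at −0.67 ± 0.07 (adjusted p 2.45e-09). Rpl41, the shortest protein of the ribosome, was at −0.61 ± 0.06 (adjusted p 2.96e-09). Rpl3l, the striated-muscle paralogue of Rpl3, had the lowest value of all at −0.78 ± 0.16 (adjusted p 4.79e-04), but from only 67 to 195 counts per library.

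Other members hardly differed. Rplp0 (ENSMUSG00000067274.10, chromosome 5, 115559467 to 115563727), the base of the ribosomal stalk and a common reference gene, read 1808, 1722 and 1767 CPM in control and 1611, 1756 and 1739 CPM with COOH SWCNT. These overlapped, at −0.05 ± 0.04 (adjusted p 0.41). Rps4x (ENSMUSG00000031320.9, chromosome X, 102184941 to 102189394), an X-linked small-subunit protein, read 1476, 1373 and 1332 CPM against 1296, 1393 and 1355 CPM. It overlapped too, at −0.05 ± 0.04 (adjusted p 0.456). Rpl3, at the peptidyl transferase centre, was at −0.06 ± 0.04, and Rpl10, which joins the large subunit late, at −0.05. Well-expressed members of 1 particle thus ran from −0.74 for Rpl22 to −0.03 for Rpl29.

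**Figure D2:**
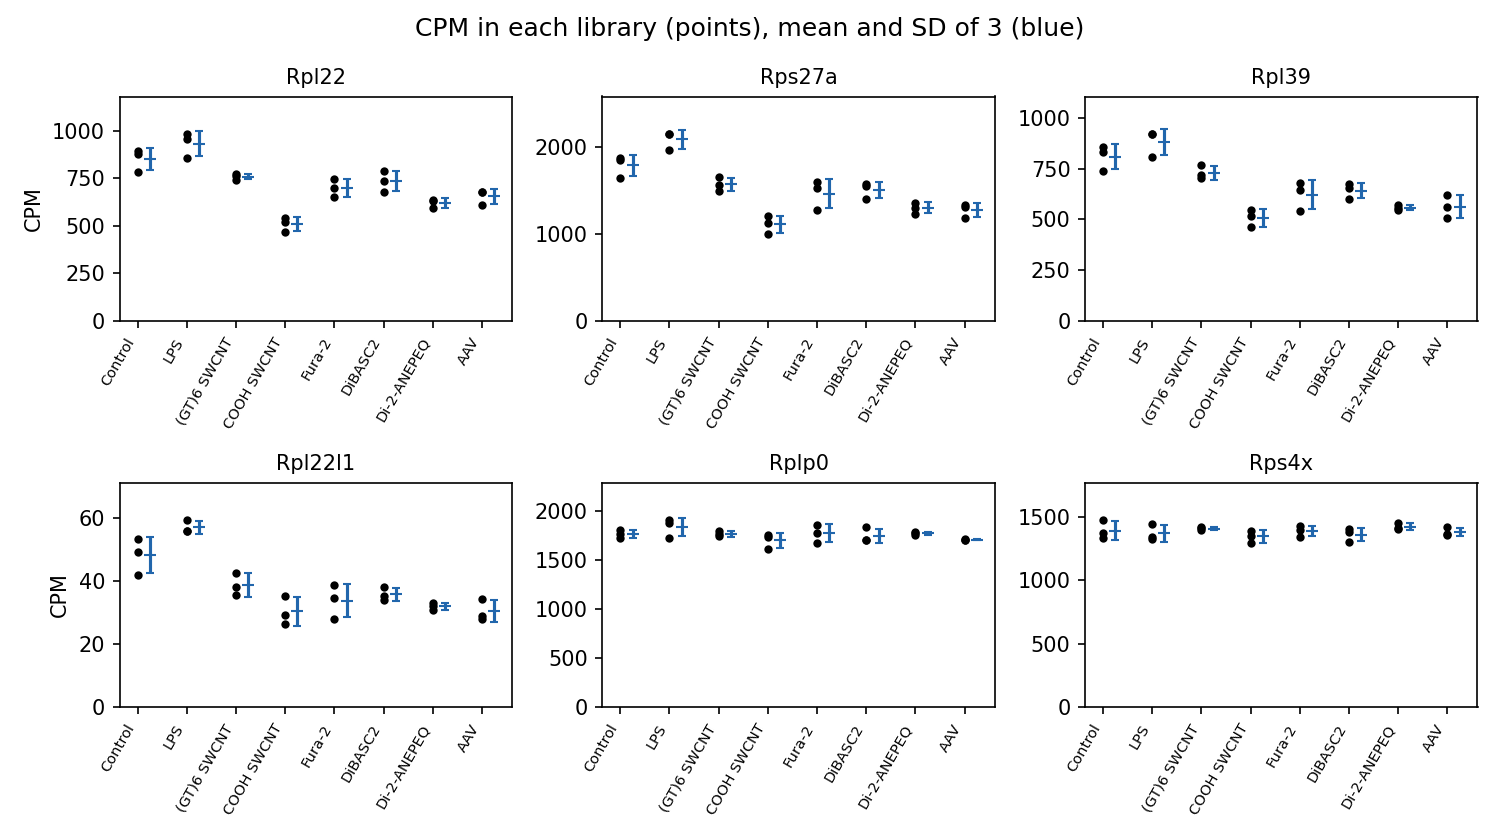
CPM (vertical axis, from 0) of 6 ribosomal protein genes in each library (black points) by group, with the mean and SD of 3 libraries in blue. Rpl22, Rps27a and Rpl39 were lowest with COOH SWCNT, at 510, 1107 and 509 CPM on average, while Rplp0 stayed between 1611 and 1908 CPM in all 24 libraries.

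Short transcripts in general were lower with COOH SWCNT. Length is the median over a gene's basic protein-coding transcripts, 773 nt at the middle of the members. Among 874 other protein-coding genes of at most 1000 nt, 286 were called lower and 24 higher, with a median of −0.15. In the 161 of these with at least 100 CPM the median was −0.16, with 90 lower and 12 higher. The median of other genes rose with length, from −0.23 up to 500 nt (83 genes) and −0.18 from 501 to 750 nt (305 genes) to 0.06 over 5000 nt (1497 genes). Members of the same lengths lay lower, with medians of −0.40 up to 500 nt (12 genes), −0.33 from 501 to 750 nt (27 genes), −0.21 from 751 to 1000 nt (24 genes) and −0.23 from 1001 to 1500 nt (12 genes). Rpl22, at 2048 nt, lay at −0.74 where 2769 other genes of 2001 to 3000 nt had a median of −0.0053. Members over 1500 nt were only 7 in number, Rpl22 among them.

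**Figure D3:**
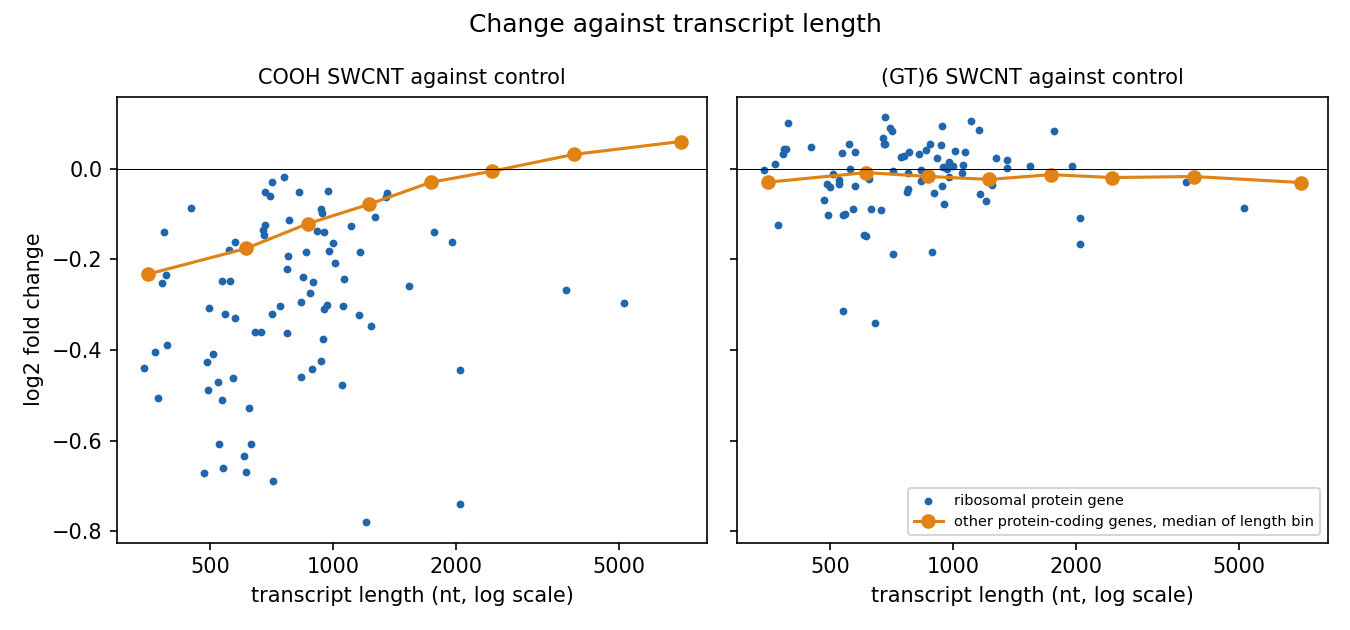
Log2 fold change of each ribosomal protein gene (blue points) against its transcript length in nt (log scale), with the median of other protein-coding genes per length bin (orange, drawn at the middle of the bin). With COOH SWCNT (left) the orange line climbs from −0.23 to 0.06 and most members lie under it. With (GT)6 SWCNT (right) it is flat.

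A smooth trend of log2 level on length, fitted in each library to non-member protein-coding genes, was then taken out. The median of the other short genes moved from −0.15 to −0.0023 with COOH SWCNT, and the members' median from −0.28 to −0.15. The fit used such short genes and not the members. A median near 0 in the short genes therefore follows from the fit and is no separate result. Of the members 48 were still called lower and 3 were called higher, against 10.1% and 8.93% of all genes with the trend removed. The 48 were all among the 66 called before. Rpl22 was at −0.73 ± 0.05 (adjusted p 2.75e-15), Rps27a at −0.54 ± 0.04 (6.38e-13), Rpl39 at −0.49 ± 0.05 (2.09e-11) and Rpl36a at −0.46 ± 0.04 (1.67e-12). Among the 3 called higher were Rplp2 and Rpl29, at 0.14 and 0.12, and none of the 3 was called before removal. With the shortest transcript as the length, an alternative added after the data were seen, 57 were lower and 0 higher, with a median of −0.20. The lengths of Rps15a (5130 nt) and Rps20 (3706 nt) come from long annotated isoforms, so their values with the trend removed are uncertain.

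**Figure D4:**
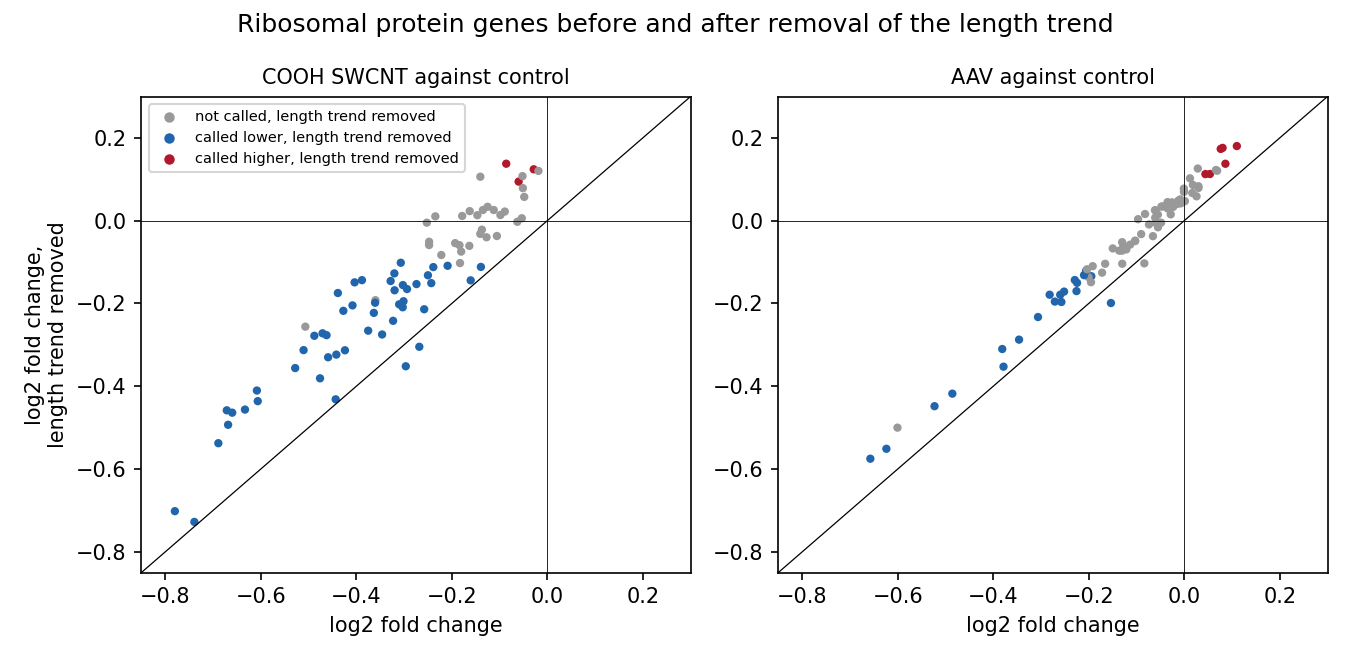
Log2 fold change of the 82 ribosomal protein genes with the length trend of each library removed (vertical axis) against that without removal (horizontal axis), for COOH SWCNT (left) and AAV (right), coloured by the call after removal; the diagonal marks equal values. Most points lie above the diagonal, and 48 members are called lower after removal with COOH SWCNT and 20 with AAV.

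The COOH SWCNT libraries differed among themselves. The members' median difference from control was −0.37 in replicate 1, −0.24 in replicate 2 and −0.22 in replicate 3, and that of the other short genes −0.22, −0.10 and −0.11. The gap between members and other short genes was −0.13 ± 0.02 (SD, n = 3) with COOH SWCNT. In control it was 0.0008 ± 0.019, a mean near 0 by construction, since differences were taken from the mean of these same libraries. The gap was −0.048 ± 0.0034 with DiBASC2, −0.044 ± 0.024 with Di-2-ANEPEQ, −0.029 ± 0.0092 with AAV and −0.025 ± 0.021 with Fura-2. It was 0.0056 ± 0.010 with (GT)6 SWCNT and 0.054 ± 0.039 with LPS. Without COOH SWCNT replicate 1, 52 members were called. Gm42418, a noncoding locus that carries ribosomal RNA sequence, took 1.45% ± 0.0597 of counts with COOH SWCNT, 1.59% ± 0.0910 with Fura-2 and 0.857% ± 0.254 in control, and its part in the result was not tested.

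**Figure D5:**
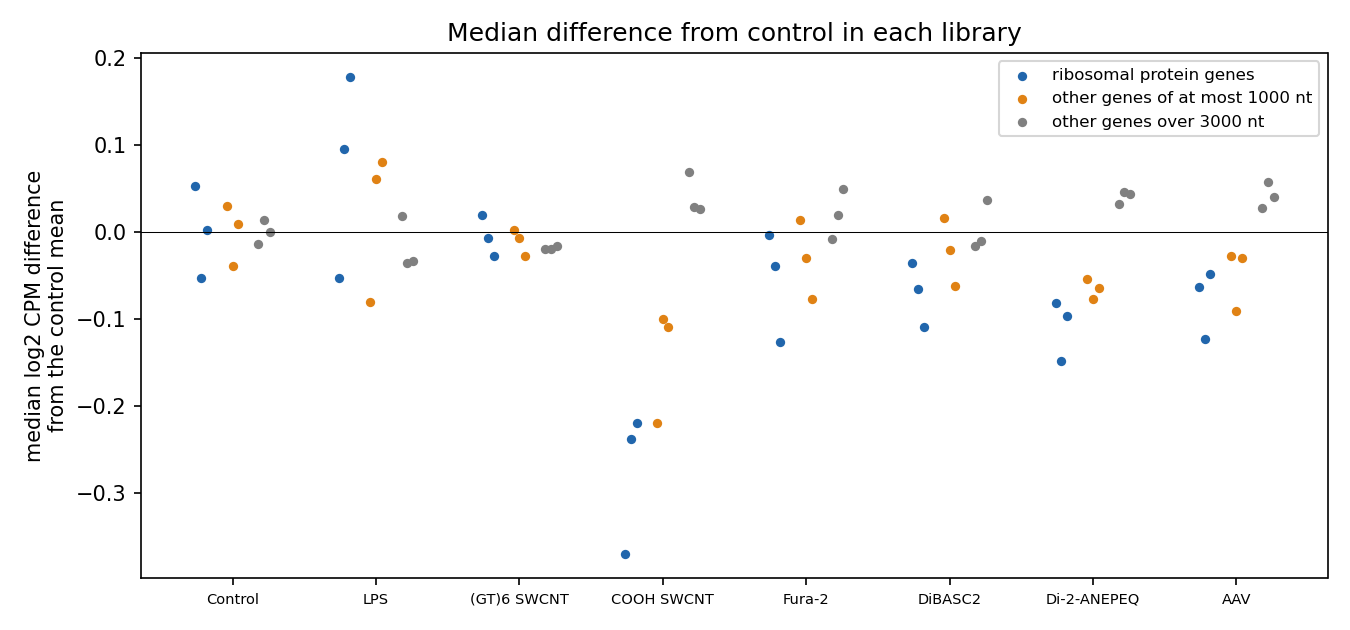
Median log2 CPM difference from the control mean (vertical axis) in each of 24 libraries for ribosomal protein genes (blue), other protein-coding genes of at most 1000 nt (orange) and other genes over 3000 nt (grey). The 3 COOH SWCNT libraries have the lowest blue points, from −0.37 to −0.22, and the LPS libraries span −0.05 to 0.18.

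The 2 kinds of nanotube differed directly. In (GT)6 SWCNT against COOH SWCNT, 73 of 82 members were called higher with (GT)6 SWCNT (89.0%) and 0 lower, against 11.9% and 9.48% of all genes. The median was 0.27, with 0.14 for the other short genes. With the length trend removed 48 were higher and 0 lower, against 12% and 7.29% of all genes. The members' median was then 0.15. That of the other short genes, which entered the fit of the trend, was 0.0047. Rpl22 was higher by 0.57 ± 0.06 (adjusted p 3.27e-09), Rpl36a by 0.60 ± 0.07 (1.57e-08), Rpl41 by 0.58 ± 0.06 (1.48e-08) and Rpl39 by 0.52 ± 0.07 (6.55e-07). Rpl3l was at 0.71 ± 0.16 (adjusted p 0.00144). Rplp0 was at 0.06 ± 0.04 (adjusted p 0.375). Upper-quartile factors put 44.4% of all genes called between (GT)6 SWCNT and COOH SWCNT on the higher side, against 55.6% with TMM factors. This comparison shares the COOH SWCNT libraries with the one before.

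In (GT)6 SWCNT against control, 4 members were called lower (4.88%) and 0 higher, against 10.5% and 9.90% of all genes. The median was −0.0023, and its sign changed with the scaling, to 0.0098 with DESeq2 size factors. The DESeq2 test called none of these 4 (adjusted p 0.0572 to 0.131) and a single other member, higher. The 4 were Rpl22l1 at −0.31 ± 0.09 (adjusted p 0.0137), Rps27a at −0.19 ± 0.06 (0.0350), Rps7 at −0.18 ± 0.06 (0.0219) and Rpl22 at −0.17 ± 0.06 (0.0355). Rpl22 read 769, 743 and 762 CPM, each below the lowest control library at 784 CPM. Rps7 read 1510, 1432 and 1597 CPM, below 1616 to 1781 CPM in control, while Rps27a and Rpl22l1 overlapped with control. Without control replicate 3, (GT)6 SWCNT replicate 1 or (GT)6 SWCNT replicate 2 edgeR called no member (4 at an unadjusted p under 0.05 each time), and without control replicate 1 a single member was called, higher. After removal of the length trend 7 were called lower, the 4 among them, and 4 higher, against 10.8% and 11.6% of all genes.

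In LPS against control the share of members called was near the background. Of the members 11 were called higher (13.4%) and 0 lower, against 13.8% and 14.5% of all genes and 13.7% of other short genes of at least 100 CPM called higher. The median was 0.07, with 0.02 in the other short genes, and 0.03 both with upper-quartile factors and with the length trend removed. Rpl22l1, the low-level paralogue of Rpl22, had the highest value, at 59.2, 55.7 and 55.7 CPM with LPS and 53.1, 41.8 and 49.2 CPM in control. Its groups did not overlap, at 0.25 ± 0.09 (adjusted p 0.0379), but with the length trend removed it was not called (0.19 ± 0.08, adjusted p 0.0746). Rpl34 was at 0.23 ± 0.07 (adjusted p 0.00657), Rps27a at 0.22 ± 0.06 (0.00761), Rps14 at 0.20 ± 0.06 (0.00861) and Rps27 at 0.19 ± 0.07 (0.0443). Rps27a read 1962, 2146 and 2141 CPM, above each control library, and the other 3 overlapped with control.

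The LPS count rested on single libraries. The members' median difference from control was −0.05 in LPS replicate 1, 0.10 in replicate 2 and 0.18 in replicate 3, with −0.08, 0.06 and 0.08 in the other short genes. Without LPS replicate 1, 45 members were called higher, without LPS replicate 2 or 3 it was 4, and without control replicate 2 it was 0 in edgeR (7 at an unadjusted p under 0.05). The share of all genes called in these refits is not given here, so the counts cannot be set against it. With upper-quartile factors 4 were higher, and those factors put 35.4% of all genes called in LPS on the higher side, against 48.7% with TMM factors. After removal of the length trend 12 members were higher and 0 lower, 10 of them called before, against 14.3% and 16.2% of all genes.

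Di-2-ANEPEQ gave 24 members called lower (29.3%) and 0 higher, against 2.39% and 0.686% of all genes, with a median of −0.10. Among the other short genes 78 of 874 were lower (8.92%) and 1 was higher, with a median of −0.07, and among the 161 of at least 100 CPM 33 were lower (20.5%). The members' median with the length trend removed was −0.03. Rpl22l1 (ENSMUSG00000039221.10, chromosome 3, 28805436 to 28807424) read 30.8, 33.1 and 31.9 CPM, below each control library, at −0.59 ± 0.09 (adjusted p 2.18e-04). Rpl39 read 570, 548 and 555 CPM against at least 738 CPM in control, at −0.54 ± 0.07 (adjusted p 1.40e-05). Rps27l, a paralogue of Rps27, was at −0.47 ± 0.06 (2.99e-05), Rps27a at −0.46 ± 0.07 (5.30e-05) and Rpl22 at −0.46 ± 0.06 (1.40e-05). Rps10 was at −0.51 ± 0.15 (0.0477), from 99 to 194 counts per library. Without control replicate 1, 14 were called and without Di-2-ANEPEQ replicate 2, 13. Removal of the length trend left 22 lower, 20 of them called before, and 4 higher, against 2.31% and 1.33% of all genes. Rps10 was then not called (adjusted p 0.121).

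AAV gave 18 members called lower and 0 higher, against 3.16% and 1.84% of all genes, with a median of −0.08. Upper-quartile factors put 26.3% of all genes called with AAV on the higher side, against 36.7% with TMM factors. Other short genes were lower in 71 (8.12%) and higher in 8 of 874 cases, with a median of −0.05. Of the 161 with at least 100 CPM 24 were lower (14.9%), and of 77 mitochondrial ribosomal protein genes 15 (19.5%). The members' median with the length trend removed was −0.01. Rpl22l1 read 34.3, 28.7 and 28.01 CPM, at −0.66 ± 0.09 (adjusted p 7.46e-05), and did not overlap with control. Rpl39 was at −0.52 ± 0.07 (4.03e-05), Rps27a at −0.49 ± 0.07 (4.03e-05), Rps14 at −0.38 ± 0.06 (1.96e-04) and Rpl22 at −0.38 ± 0.06 (1.49e-04). Rps10 was at −0.62 ± 0.15 (0.0106). The 18 were called at 10 without control replicate 1, and at 9 without control replicate 3 or without AAV replicate 2. Removal of the length trend left 20 lower, all 18 among them, and 6 were higher, against 3.0% and 2.89% of all genes. The 6 had values between 0.04 and 0.11 before removal.

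DiBASC2 gave 5 members called lower (6.10%) and 0 higher, against 3.64% and 1.82% of all genes, with a median of −0.06. The members' median with the length trend removed was −0.04. Of 874 other short genes 19 were lower (2.17%) and 3 higher, with a median of −0.02. Upper-quartile factors turned the split of all genes called with DiBASC2 from 33.3% to 54.9% higher. The 5 were Rpl22l1 at −0.42 ± 0.09 (adjusted p 0.00357), Rpl39 at −0.33 ± 0.07 (0.00187), Rps27a at −0.25 ± 0.06 (0.0179), Rpl22 at −0.21 ± 0.06 (0.0206) and Rpl9 at −0.16 ± 0.04 (0.0180). Rpl39 read 654, 673 and 599 CPM and lay under each control library. Rpl22, at 787, 735 and 679.7 CPM, overlapped with control. The count was 1 without control replicate 1 and 3 without control replicate 3 or without DiBASC2 replicate 3. With the length trend removed 10 were lower and 0 higher, against 5.21% and 2.15% of all genes.

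Fura-2 gave 4 members called lower (4.88%) and 0 higher, where 28 genes were lower and 5 higher in all, 0.213% and 0.0381%. The median was −0.06, and −0.01 with the length trend removed. Other short genes were lower in 7 (0.801%) and higher in 0 of 874 cases, with a median of −0.03. The 4 were Rpl22l1 at −0.51 ± 0.09 (adjusted p 0.0162), Rpl39 at −0.38 ± 0.07 (0.0144), Rps27a at −0.29 ± 0.07 (0.0422) and Rpl22 at −0.29 ± 0.06 (0.0183). Rpl39 read 679, 644 and 542 CPM and Rpl22 read 745, 698 and 649 CPM, and neither overlapped with control. No member was called by edgeR without control replicate 1, control replicate 3, Fura-2 replicate 2 or Fura-2 replicate 3, where 11 to 26 had an unadjusted p under 0.05. With the length trend removed 7 were lower and 0 higher, against 0.541% and 0.221% of all genes.

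The 7 comparisons with control share its 3 libraries, so the values of a member in them are not independent. Rpl22 averaged 851 ± 58.9 CPM in control (SD, n = 3), 932 ± 65.6 with LPS, 758 ± 13.7 with (GT)6 SWCNT, 734 ± 53.5 with DiBASC2 and 697 ± 47.6 with Fura-2. It averaged 655 ± 39.4 with AAV, 619.5 ± 25.1 with Di-2-ANEPEQ and 510 ± 37.0 with COOH SWCNT. Of the neighbours in that order, control and (GT)6 SWCNT, and Di-2-ANEPEQ and COOH SWCNT, differed by more than their summed SD, and the other neighbours by less. Rps27a averaged 2083 ± 105 CPM with LPS, 1784 ± 125 in control, 1566 ± 78.8 with (GT)6 SWCNT, 1505 ± 92.8 with DiBASC2 and 1462 ± 166 with Fura-2. It averaged 1296 ± 63.3 with Di-2-ANEPEQ, 1274 ± 82.5 with AAV and 1107 ± 99.5 with COOH SWCNT. Here LPS and control, and control and (GT)6 SWCNT, differed by more than their summed SD, and the other neighbours by less.

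Paralogues were compared in pairs. Rpl22 and Rpl22l1, of 851 and 48.1 CPM in control, were both lower with COOH SWCNT, at −0.74 and −0.66. Rps27 and Rps27l, at 768 and 292 CPM in control, were at −0.44 ± 0.07 and −0.51 ± 0.06 (adjusted p 2.18e-05 and 1.77e-07). Rpl7, at 1088 CPM, was at −0.18 ± 0.05 and Rpl7l1, at 234 CPM, at −0.16 ± 0.03 (adjusted p 0.00950 and 6.14e-04). Rpl36al, with 16 to 35 counts per library, had an SE of 0.30 with COOH SWCNT, so a change the size of that of Rpl36a was not detectable at this depth. The 3 stalk proteins recruit elongation factors. Rplp0 was called in no comparison, Rplp1 was lower with COOH SWCNT (−0.31 ± 0.06, adjusted p 4.56e-04) and higher with LPS (0.18 ± 0.06, 0.0341), and Rplp2 was at −0.09 ± 0.05 with COOH SWCNT (0.282). Rpsa, the laminin-binding small-subunit protein, was at −0.14 ± 0.05 with COOH SWCNT (0.0453), a call lost without any 1 of 5 libraries.

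Some proteins outside the symbol rule also sit in the ribosome. Fau, which encodes a small-subunit protein fused to a ubiquitin-like one, was lower with COOH SWCNT (−0.19 ± 0.05, adjusted p 0.00195), and Rack1 was not called. The list of other messages with an oligopyrimidine tract held 16 tested genes. With COOH SWCNT 9 of them were lower and 1 higher (56.2% and 6.25%, against 10.6% and 9.39% of all genes), with a median of −0.13, and 7 and 2 with the length trend removed. The lowest were the snoRNA host Gas5 (−0.52 ± 0.06, adjusted p 3.15e-08) and the elongation factor subunit Eef1b2 (−0.38 ± 0.05, 5.42e-08), and the single higher gene was Eef2, which moves the ribosome along (0.14 ± 0.03, 0.00285). With (GT)6 SWCNT against COOH SWCNT 8 were higher (50%, against 11.9% of all genes) and 0 lower. AAV gave 2 higher and 4 lower (12.5% and 25%, against 1.84% and 3.16% of all genes). Di-2-ANEPEQ gave 2 lower (12.5%, against 2.39% of all genes), and Fura-2 and DiBASC2 1 lower each (6.25%, against 0.213% and 3.64%). (GT)6 SWCNT gave 2 higher (12.5%, against 9.90%) and LPS 1 higher (6.25%, against 13.8%).

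Of 44 ribosome assembly genes, COOH SWCNT had 16 lower and 2 higher (36.4% and 4.55%, against 10.6% and 9.39% of all genes), with a median of −0.07, and 17 and 2 with the length trend removed. The lowest were Ebna1bp2 (−0.38 ± 0.04) and Nip7 (−0.34 ± 0.06), both factors of the large subunit, and the higher ones Utp15 (0.14 ± 0.04) and Rrp12 (0.12 ± 0.04). In (GT)6 SWCNT against COOH SWCNT 22 were higher (50%, against 11.9% of all genes) and 0 lower. LPS gave 9 higher and 1 lower (20.5% and 2.27%, against 13.8% and 14.5% of all genes), with Rrs1 highest at 0.65 ± 0.04. With (GT)6 SWCNT 5 were higher (11.4%, near the 9.90% of all genes) and 2 lower (4.55%, against 10.5%). With the length trend removed the counts were 10 and 2, against 11.6% and 10.8% of all genes. With DiBASC2 0 were higher and 5 lower (11.4%, against 3.64% of all genes). With the trend removed the counts were 0 and 13, where 5.21% of all genes were lower. AAV gave 1 higher and 2 lower (2.27% and 4.55%, against 1.84% and 3.16% of all genes). Di-2-ANEPEQ gave 0 higher and 1 lower (2.27%, near the 2.39% of all genes). The counts were 0 and 0 with Fura-2, where edgeR gave 4 genes an unadjusted p under 0.05.

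Regulators were tested in 13 of 14 cases. With LPS 2 were higher and 2 lower (15.4% each, near the 13.8% and 14.5% of all genes). Each kind of SWCNT gave 3 higher and 1 lower (23.1% and 7.69%). Of all genes 9.90% and 10.5% were called with (GT)6 SWCNT, and 9.39% and 10.6% with COOH SWCNT. Fura-2 and DiBASC2 gave 1 higher and 0 lower each (7.69%, against 0.0381% and 1.82% of all genes). With Di-2-ANEPEQ and AAV edgeR called 0, and 2 and 3 had an unadjusted p under 0.05. Myc, the transcription factor, was higher by 3.70 ± 0.14 with LPS, 1.78 ± 0.17 with (GT)6 SWCNT and 1.15 ± 0.18 with COOH SWCNT. It was also higher with (GT)6 SWCNT than with COOH SWCNT, by 0.62 ± 0.14. Ddit4, an inhibitor of mTOR, was at −0.60 ± 0.12 with LPS, −0.58 ± 0.12 with (GT)6 SWCNT, 0.48 ± 0.11 with Fura-2 and 0.40 ± 0.11 with DiBASC2, all called. Sesn2, a stress-induced mTOR inhibitor, was higher with (GT)6 SWCNT (0.70 ± 0.10) and COOH SWCNT (0.46 ± 0.10). The kinase gene Rps6kb1 was at −0.12 ± 0.04 with COOH SWCNT. Mtor, Rptor and Larp1 were called in none of the 7 comparisons with control, but Mtor and Rptor were lower with (GT)6 SWCNT than with COOH SWCNT (−0.13 ± 0.05 and −0.17 ± 0.05, adjusted p 0.0488 and 0.0109). Neither was called there with the length trend removed (−0.06 ± 0.04 and −0.08 ± 0.04, adjusted p 0.309 and 0.202). The 5 inflammation genes Tnf, Il1b, Cxcl2, Nfkbia and Ptgs2 were all higher with LPS, (GT)6 SWCNT and COOH SWCNT, and all lower with DiBASC2.

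Mitochondrial ribosomal protein genes and nuclear genes of oxidative phosphorylation were set beside the members. Their median lengths were 1226 and 732 nt, against 773 nt for the members, so only the second set was of like length. Median levels over all libraries were 63.2 and 118 CPM, against 839 CPM for the members. With COOH SWCNT 38 of 77 mitochondrial ribosomal protein genes were lower and 1 higher (49.4% and 1.30%, against 10.6% and 9.39% of all genes). Their median was −0.16, and −0.10 with the length trend removed. Of 75 oxidative phosphorylation genes 46 were lower (61.3%) and 0 higher, with a median of −0.20, and −0.06 with the trend removed. The members' medians were −0.28 and −0.15.

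Some counts are uncertain because strand use and reads with several matches are not stated. Rps10 averaged 135 counts, Rpl13a 1658 and Rpl24 5.63, and each shares exons with an annotated read-through gene of 0 counts in all libraries. Rpl36al shares exons with Gm49383, which had at most 3 counts. Rps27a overlaps an exon of Clhc1 on the other strand. Of the tested members 44 had no exon overlap with another gene, and with COOH SWCNT 37 of these were lower, with a median of −0.30, as were 29 of 38 with an overlap, with a median of −0.25. With the counts of 298 pseudogenes added to the members they are named for, 66 members were again called lower.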

How the data were processed

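The authors deposited 1 table of raw read counts per gene for 24 libraries. Reads were aligned with STAR 2.5.4b to GRCm38.p6, per the submitters' processing notes. The counting tool, annotation, strand setting and treatment of reads with several matches are not given in the sources used here. Groups came from the sample titles. Symbols, types and positions came from GENCODE M21 on GRCm38, matched by identifier (29 of 54838 unmatched), and start windows from RefSeq on GRCm38.p6.

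Counts were fitted in R 4.3.3 with edgeR 4.0.16 (filterByExpr, TMM factors, quasi-likelihood model with a mean per group, all 24 libraries, 16 residual degrees of freedom, two-sided). P-values were adjusted (Benjamini-Hochberg) over 13116 genes within each of 8 comparisons. CPM use TMM-scaled totals. Total counts were 17364272 to 29259221 per library. Replicates differed by more than sampling noise (chi-square per degree of freedom 2.44 to 19.0 over 24 pairs).

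The length trend was a smooth (mgcv 1.9.3) of log2 level on log2 length in each library, fitted without the members and entered as an offset. The fit and the trend removal were tried on simulated counts, for COOH SWCNT against control only. Those counts had a linear length trend and a dispersion shared by all genes. They do not show how well the trend was removed from the real libraries. Named members were, in each comparison, the 5 highest and 5 lowest called, with the stalk genes, Rpsa and pairs of paralogues. Of each other list, up to 2 called genes at each end were named, and others were singled out after their values were seen. The members and lists were chosen with earlier results of these data known. Alternatives were other scalings, filters, tests, a replicate block, length and GC trends, added pseudogene counts and leaving out each library. Values of some single genes are not reported here.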

Additional observations from a re-analysis of the deposited data

How the results depend on the processing

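Over the named members and the alternatives run, 2515 values kept their side of the threshold, 123 lost the call, 61 gained it and 3 turned from an uncalled value below 0 to a higher call. All 3 were Rplp2 with COOH SWCNT (0.14 with the length trend removed, 0.12 with length and GC, 0.14 with the replicate block and length trend removed). Many of the 2515 were members named whatever their value that stayed uncalled, so that total does not show how firm the calls were. Leaving out each library in turn gave 52 to 67 called members for COOH SWCNT, 62 to 74 for (GT)6 SWCNT against COOH SWCNT, 13 to 28 for Di-2-ANEPEQ, 9 to 20 for AAV, 0 to 45 for LPS, 0 to 4 for (GT)6 SWCNT, 0 to 6 for Fura-2 and 1 to 7 for DiBASC2. Without a low-count filter 22 members were called for LPS, 7 for (GT)6 SWCNT, 17 for Fura-2, 17 for DiBASC2 and 30 for AAV. Upper-quartile factors gave 4 for LPS and 3 for DiBASC2. DESeq2 size factors, and TMM factors without the members, gave 2 each for (GT)6 SWCNT. Fits of only the 2 groups gave 10 for (GT)6 SWCNT, 38 for Di-2-ANEPEQ and 30 for AAV, and the DESeq2 test gave 1 for (GT)6 SWCNT, higher, with the 4 lower calls lost. With the length trend removed the counts were 11 for (GT)6 SWCNT, 7 for Fura-2, 10 for DiBASC2 and 48 for (GT)6 SWCNT against COOH SWCNT. With length and GC they were 11 for (GT)6 SWCNT, 10 for DiBASC2 and 29 for AAV (8 higher, 21 lower). With the shortest transcript as length, added after seeing the data, they were 7 for (GT)6 SWCNT and 9 for DiBASC2. The cause of these moves was not tested. Outside the main fit and the fit with the length trend removed, the share of all genes called is not given here. Member counts from the other fits thus do not tell a change in the members from one in all genes.

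Replicate numbers did not pair the libraries: same-number deviations correlated between −0.08 and 0.07. With the replicate block 64 members were called for COOH SWCNT, 73 for (GT)6 SWCNT against COOH SWCNT, 9 for LPS, 4 for (GT)6 SWCNT, 3 for Fura-2, 5 for DiBASC2, 22 for Di-2-ANEPEQ and 16 for AAV. With the replicate block and the length trend removed the counts were 11 for (GT)6 SWCNT, 7 for Fura-2, 9 for DiBASC2 and 48 for (GT)6 SWCNT against COOH SWCNT. Of the medians, 116 of the settings moved them by less than the spread between replicates and 20 by more.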
